A study of Mus musculus with 8 samples.

Results

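The 10 genes described here encode transforming growth factor beta (TGF-β), activin A and the proteins that hold and receive them, and were chosen by name from the pathway. They are the ligands Tgfb1, Tgfb2 and Tgfb3, the latent TGF-β binding proteins Ltbp1, Ltbp2 and Ltbp3, the receptors Tgfbr1 and Tgfbr2, the activin subunit gene Inhba and the activin antagonist Fst. All 10 were found among the 50462 gene identifiers of the RNA-seq table, and all 10 were among the 17760 genes that received an adjusted p-value. RNA-seq was performed on medial knee cartilage caps from 8 individual male wild-type C57BL/6J mice, 1 library per mouse. Cartilage of the 4 naive mice, which were not operated on, was taken at day 0 and an age of 11 weeks. The other 4 mice had the left medial meniscus freed by cutting its anchoring ligament (DMM, a surgical model of post-traumatic osteoarthritis) and were 17 weeks old when cartilage was taken at day 42. A sham operation was not among the groups, so throughout, effects of surgery and of the 6 weeks between the ages cannot be told apart.

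TGF-β is secreted in a latent form, in which the mature dimer is wrapped in its own propeptide. The propeptide is usually disulphide-linked to a latent TGF-β binding protein, which anchors the complex to the matrix until integrins or proteases release the ligand. Free TGF-β binds TGFBR2, which phosphorylates TGFBR1, and the signal passes through SMAD2 and SMAD3. Activin A, a dimer of the Inhba product, signals through its own receptors to the same SMADs and is neutralised by follistatin, the product of Fst. In articular cartilage TGF-β is known for maintaining the matrix and restraining chondrocyte hypertrophy, whereas in the synovium and subchondral bone of injured joints it is known for driving fibrosis and bone formation.

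Libraries held between 12479443 and 16548002 estimated counts. The labels give the cells as chondrocytes. A list of 10 chondrocyte markers took 0.246% to 0.405% of the counts in naive and 0.661% to 1.21% in DMM libraries, and of these markers only Matn1 was listed at 0 in a library (DMM 4). Of the 10, 5 were called higher (Col2a1, Acan, Sox9, Comp and Col11a2), Col2a1 held 52.5% of the list's counts, and Matn1, Matn3 and Col9a1 had negative log2 fold changes without being called. Markers of other cells were also present. A list of 8 erythroid markers took 1.08% to 1.80% of counts in naive and 0.596% to 1.26% in DMM libraries, and a list of 10 neutrophil lineage markers 0.893% to 1.25% and 0.421% to 0.889%. One identifier without a symbol, ENSMUSG00000119584, took 15.0% of the counts in naive and 7.08% in DMM libraries on average. Marker shares are percentages of all counts, this identifier included. Median-of-ratios factors, used throughout, put the median log2 fold change at -0.01 for genes averaging 10 or more normalised counts, and scaling by total counts put it at 0.14. Of the 2429 genes called, 56.7% were higher in DMM, against 80.6% of the 2519 called under total count scaling.

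Promoter sequences are shown for the ligand whose level did not differ between groups, for the ligand with the largest difference, and for the binding protein with the smallest adjusted p-value. RefSeq promoters of GRCm38.p6, each running from 250 bases before to 50 bases after the annotated start, matched 8 of the 10 genes (not Tgfb3 or Fst). The Tgfb1 promoter lies at chr7:25686752-25687051 on the plus strand, the Tgfb2 promoter at chr1:186705940-186706239 on the minus strand and the Ltbp1 promoter at chr17:75005279-75005578 on the plus strand. Capitals mark the GC box (GGGCGG or its complement), the TATA box (TATAAA), the cAMP response element (CRE, TGACGTCA) and its shorter form (TGACG or its complement), which overlaps the full element in Ltbp1.
Tgfb1 promoter: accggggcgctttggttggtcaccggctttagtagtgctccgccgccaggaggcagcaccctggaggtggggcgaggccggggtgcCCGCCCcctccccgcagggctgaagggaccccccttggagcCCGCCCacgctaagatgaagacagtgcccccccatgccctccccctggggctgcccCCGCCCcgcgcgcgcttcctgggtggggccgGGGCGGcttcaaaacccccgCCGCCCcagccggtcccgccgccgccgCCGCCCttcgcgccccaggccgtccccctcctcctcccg
Tgfb2 promoter: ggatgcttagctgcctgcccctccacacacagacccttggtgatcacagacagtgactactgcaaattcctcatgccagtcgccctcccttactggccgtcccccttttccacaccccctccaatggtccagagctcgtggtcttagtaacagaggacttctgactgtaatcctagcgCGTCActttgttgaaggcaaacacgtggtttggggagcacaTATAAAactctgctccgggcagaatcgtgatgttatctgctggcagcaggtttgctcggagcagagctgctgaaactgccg
Ltbp1 promoter: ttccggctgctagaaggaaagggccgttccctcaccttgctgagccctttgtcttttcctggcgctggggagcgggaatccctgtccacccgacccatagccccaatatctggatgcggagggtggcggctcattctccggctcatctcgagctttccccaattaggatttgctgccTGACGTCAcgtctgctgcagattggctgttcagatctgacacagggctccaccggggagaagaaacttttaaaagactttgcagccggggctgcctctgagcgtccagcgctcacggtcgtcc

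The Tgfb1 window was 77.0% G or C and held 6 GC boxes and no TATAAA. The Tgfb2 window was 54.3% G or C, with TATAAA starting 31 bases and the shorter CRE starting 72 bases before the annotated start, and no GC box. The Ltbp1 window held the full CRE starting 73 bases before the RefSeq start. Over all 27025 promoters of the same length, the median G and C content was 52.7%, and 35.9% held a GC box, 14.2% TATAAA, 1.88% the full CRE and 21.0% the shorter form, counting both strands. CAGAC, a short sequence known to be bound by SMADs, was found on either strand in 5 of the 8 windows, against 49.7% of all promoters. The windows of Tgfb1, Tgfbr1 and Inhba held no CAGAC. These matches describe letters in a window only.

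The same study examined the microRNA miR-199a-5p, so its seed match was looked up in the 3′UTRs of the 10 genes. Mature mmu-miR-199a-5p is encoded at chr1:162217844-162217866 (plus strand) and chr9:21496537-21496559 (minus strand) of GRCm38.p6, and its seed, bases 2 to 8, is shown in capitals. The DNA letters complementary to the seed, ACACTGG, occurred in the longest annotated 3′UTR of Tgfb2 and Tgfbr2 and of none of the other 8 genes. The Tgfb2 stretch shown lies at chr1:186625125-186625154 and the Tgfbr2 stretch at chr9:116086666-116086695, both on the minus strand of GRCm38. The capitals mark the match within each stretch.
mmu-miR-199a-5p: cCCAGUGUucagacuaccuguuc
Tgfb2 3′UTR match: taaggaaaaaaataaACACTGGaagaattt
Tgfbr2 3′UTR match: caggcctaaggagtaACACTGGagtttaac

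Of 21014 mouse 3′UTRs searched the same way, 13.4% held ACACTGG. The seed match of a further microRNA that was searched, mmu-miR-21a-5p (ATAAGCT), occurred in the 3′UTRs of Ltbp2, Tgfbr1 and Tgfbr2 and in 7.19% of all 3′UTRs. The 2 matched 3′UTRs were 2656 bases long in Tgfb2 and 6085 bases long in Tgfbr2, and that of Tgfb1 was 135 bases long. Small RNAs were not measured in these libraries.

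Expression of the 10 genes was compared between naive and DMM cartilage to measure how the ligands, their carriers and their receptors stood after joint destabilisation. At an adjusted p-value of 0.05 or less and a change of at least 1.5-fold (DESeq2), 6 of the 10 genes were called, all higher in DMM, where 13.7% of the 17760 tested genes were called and 7.75% were called higher. These were Tgfb2, Tgfb3, Ltbp1, Ltbp2, Ltbp3 and Inhba. Tgfbr2 passed the adjusted p-value but fell short of 1.5-fold, and Tgfb1, Tgfbr1 and Fst passed neither. By adjusted p-value alone, 7 of the 10 genes were higher in DMM, against 11.4% of all tested genes. For 6 of the 10 genes every DMM library lay above every naive library, against 11.9% of all tested genes. The median log2 fold change of the 10 genes was 0.69, and that of all tested genes was -0.02.

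**Figure D1:**
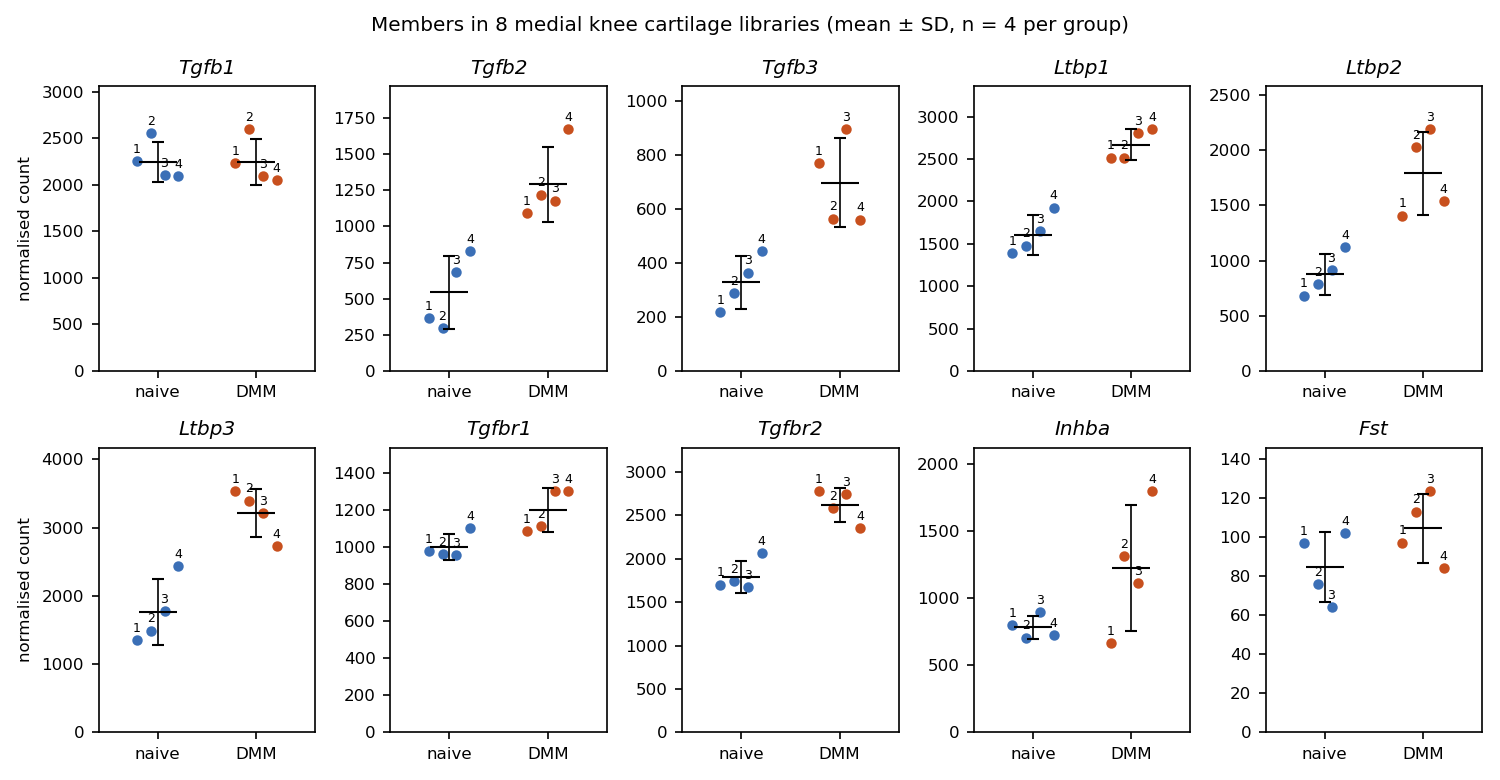
Normalised counts (linear axes from 0) of the 10 genes in each library, with naive mice in blue and DMM mice in orange, the number beside each point giving the mouse within its group, and bars showing the mean and SD of 4 mice. Tgfb2, Tgfb3, Ltbp1, Ltbp2, Ltbp3 and Tgfbr2 have no overlap between groups, the groups of Tgfb1 cover nearly the same range, and the DMM values of Inhba run from 666 to 1800.5.

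Tgfb1 (ENSMUSG00000002603, chr7:25687002-25705077, plus strand of GRCm38) encodes the most widely expressed TGF-β. Its normalised counts were 2257, 2554, 2104 and 2093 in naive mice 1 to 4 and 2234, 2597, 2095 and 2050.5 in DMM mice 1 to 4. The groups covered nearly the same range, with mouse 2 the highest in each. The log2 fold change was -0.01 (SE 0.12, DESeq2 adjusted p = 0.985), with a 95% interval of -0.23 to 0.22. Thus a rise of 1.5-fold in the RNA of the whole sample lay outside the interval under the scaling used here. The sign of the difference was positive under total count scaling (0.15), which moved the median of all genes by a like amount. Megakaryocyte and platelet, neutrophil lineage and erythroid markers took less of the counts in DMM than in naive libraries on average. The part of these cells in the Tgfb1 level was not tested.

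Tgfb2 (ENSMUSG00000039239, chr1:186622792-186705989, minus strand) encodes the isoform best known from development of the heart and skeleton. Normalised counts were 365, 295, 683 and 831 in naive mice and 1093, 1219, 1179 and 1671 in DMM mice. All DMM libraries lay above all naive libraries, DMM mouse 4 was the highest, and naive mice 1 and 2 had less than naive mice 3 and 4. Tgfb2 rose 2.37-fold (log2 1.25, SE 0.28, DESeq2 adjusted p = 0.000171). The call held in all 8 fits that left out 1 library, with log2 fold changes between 1.05 and 1.52. As these are bulk libraries, changes in the number of cells of a type and in the RNA per cell cannot be told apart. This holds for Tgfb1, for Tgfb2 and for every gene below.

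Tgfb3 (ENSMUSG00000021253, chr12:86056745-86079041, minus strand) encodes the isoform best known from palate closure and chondrogenic culture. Normalised counts were 216, 287, 364 and 444 in naive mice and 770.4, 563, 894 and 559.6 in DMM mice. The groups did not overlap, and DMM mice 1 and 3 were higher than DMM mice 2 and 4, an order unlike that of Tgfb2. Tgfb3 rose 2.13-fold (log2 1.09, SE 0.23, DESeq2 adjusted p = 5.65e-05) and was called in all 8 fits that left out 1 library. Ttll5 and other genes lie on the opposite strand of the Tgfb3 locus, and the sources do not say whether reads were counted by strand. No stretch of 31 bases of Tgfb3 transcripts occurred in a transcript of another gene. For the other 9 genes the share of such stretches found elsewhere was at most 1.79%, in Tgfb1.

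The balance between the 3 ligands was described by the share of each in their sum within a library, after dividing counts by the length of the longest coding transcript. Shares within a library do not depend on the scaling between libraries. Tgfb1 was the most abundant ligand in every library. Its share was 88.5%, 89.2%, 80.1% and 76.6% in naive mice and 69.9%, 74.7%, 66.1% and 65.7% in DMM mice, so that the lowest naive value stood above the highest DMM value. The Tgfb2 share was 6.08%, 4.38%, 11.0% and 12.9% in naive mice and 14.5%, 14.9%, 15.8% and 22.8% in DMM mice, again without overlap. That of Tgfb3 averaged 7.82% ± 2.28 in naive and 13.9% ± 3.57 in DMM mice (SD, n = 4 each), and naive mouse 4 (10.5%) lay just above DMM mouse 2 (10.4%). The mean Tgfb1 share was 83.6% ± 6.22 in naive and 69.1% ± 4.19 in DMM mice (SD, n = 4 each). These shares restate the 3 genes' counts and were not tested separately. The size of the Tgfb2 shift depends on the length used, at 8.40 percentage points per length and 13.3 points on counts not divided by length.

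**Figure D2:**
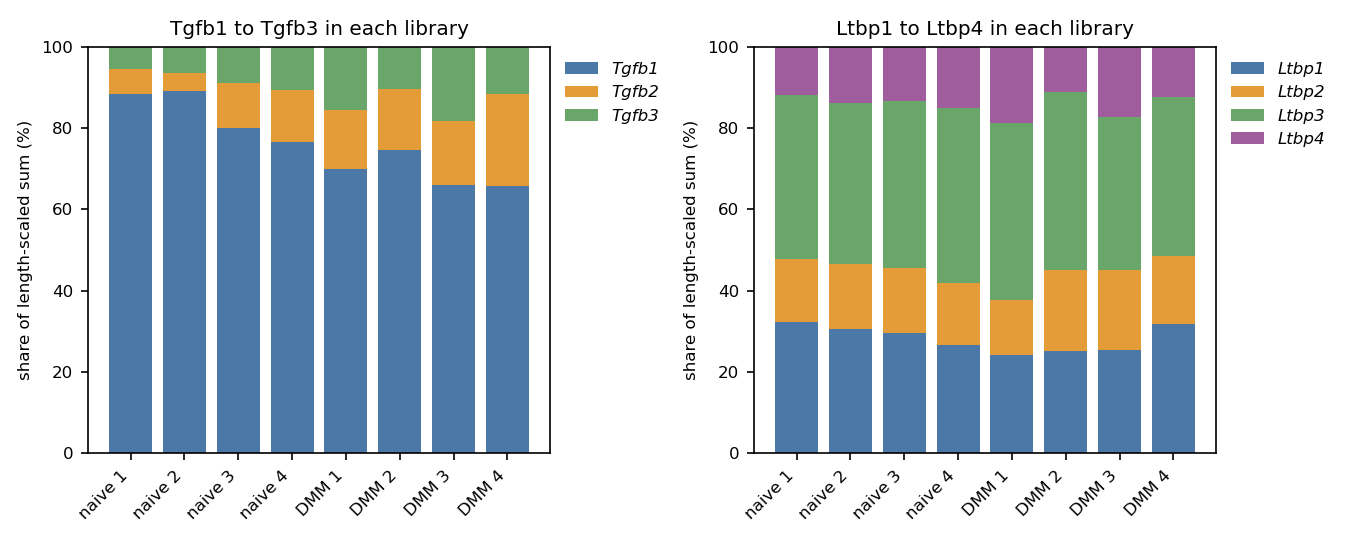
Share of each gene (percent, stacked bars from 0 to 100) in the length-scaled sum of Tgfb1 to Tgfb3 (left) and of Ltbp1 to Ltbp4 (right) in each library. The Tgfb1 share lies between 76.6% and 89.2% in naive and between 65.7% and 74.7% in DMM libraries, and each Ltbp share overlaps between groups.

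Inhba (ENSMUSG00000041324, chr13:16011851-16031621, plus strand) encodes the βA subunit, and its 4 naive values lay close together, between 706 and 898 normalised counts. The DMM values were 666, 1316, 1115 and 1800.5 in mice 1 to 4. DMM mouse 1 was below every naive mouse and DMM mouse 4 was the highest of all, so the highest DMM value was 2.70 times the lowest. The log2 fold change was 0.64 (SE 0.24, DESeq2 adjusted p = 0.0348) and fell to 0.40 (adjusted p = 0.179) without DMM mouse 4. Without DMM mouse 1 it was 0.85 (adjusted p = 0.000119). The call was lost without naive mouse 1, 2 or 4 or DMM mouse 2 or 4, with edgeR's quasi-likelihood test (adjusted p = 0.0819) and with limma-voom (adjusted p = 0.129).

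Fst (ENSMUSG00000021765, chr13:114452290-114458951, minus strand) was the least abundant of the 10 genes. Normalised counts were 97, 76, 64 and 102 in naive mice and 97, 113, 123.5 and 84 in DMM mice, and the groups overlapped. The log2 fold change was 0.30 (SE 0.22, DESeq2 adjusted p = 0.373), with a 95% interval of -0.14 to 0.73 that includes a change of 1.5-fold. The ratio of Inhba to Fst per length was 3.67, 4.13, 6.20 and 3.16 in naive mice and 3.04, 5.17, 4.00 and 9.51 in DMM mice. DMM mouse 4 had the highest ratio, and the other 3 DMM mice lay within the naive range or, in mouse 1, just below it. Among other activin genes, Inhbb, the βB subunit gene, differed by 0.27 on the log2 scale (SE 0.25, adjusted p = 0.495), and Fstl3, which encodes another activin-binding follistatin, by -0.22 (SE 0.29, adjusted p = 0.654).

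Each of the 3 latent binding protein genes was called higher in DMM, and every DMM library lay above every naive library for each. Ltbp1 (ENSMUSG00000001870, chr17:75005568-75392512, plus strand) encodes the carrier that binds all 3 TGF-β propeptides. Its normalised counts were 1386, 1477, 1645 and 1924 in naive mice and 2514, 2513, 2801 and 2847 in DMM mice. It varied least among the DMM mice of all 10 genes, with the highest value 1.13 times the lowest. Ltbp1 rose 1.66-fold (log2 0.73, SE 0.12, DESeq2 adjusted p = 3.17e-07), the smallest adjusted p-value of the 10 genes.

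Ltbp2 (ENSMUSG00000002020, chr12:84783212-84876532, minus strand) encodes the family member that does not bind latent TGF-β and is known from elastic fibres. Normalised counts were 683, 784, 912 and 1119 in naive mice and 1407, 2026, 2188 and 1537 in DMM mice. DMM mice 2 and 3 were the highest. Ltbp2 rose 2.05-fold (log2 1.03, SE 0.19, DESeq2 adjusted p = 2.28e-06).

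Ltbp3 (ENSMUSG00000024940, chr19:5740904-5758532, plus strand), whose loss in mice is known to alter skeletal growth, was the most abundant Ltbp per length. Normalised counts were 1348, 1490.0, 1779 and 2431 in naive mice and 3536, 3392, 3209.7 and 2723 in DMM mice. DMM mouse 4 was the lowest of its group and naive mouse 4 the highest of its own, and these stood closest to each other. Ltbp3 rose 1.82-fold (log2 0.87, SE 0.18, DESeq2 adjusted p = 4.03e-05). Dropping any single library kept the calls of all 3 genes (8 fits).

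The fourth family member, Ltbp4, which also anchors latent TGF-β, had 410, 536, 608 and 879 normalised counts in naive mice and 1559, 885, 1533 and 905 in DMM mice. Naive mouse 4 lay just under DMM mouse 2. Ltbp4 rose by 1.01 on the log2 scale (SE 0.25, DESeq2 adjusted p = 0.000863). The make-up of the family overlapped between groups for every gene. Ltbp3 held 41.0% of the length-scaled sum of Ltbp1 to Ltbp4 in both groups (SD 1.52 in naive and 3.23 in DMM, n = 4 each), and Ltbp1 held 29.7% (SD 2.38) in naive and 26.7% (SD 3.40) in DMM mice. The sum of the 4 Ltbp genes over the sum of the 3 ligand genes was 0.549, 0.550, 0.693 and 0.864 in naive mice and 1.06, 0.934, 1.13 and 0.938 in DMM mice, which did not overlap. The Ltbp sum includes Ltbp2, which does not bind latent TGF-β, so the ratio does not measure carriers alone. It restates the counts of these genes and was not tested separately.

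Tgfbr2 (ENSMUSG00000032440, chr9:116084293-116175360, minus strand) encodes the ligand-binding receptor. Its normalised counts were 1699, 1737, 1671 and 2064 in naive mice and 2779, 2583, 2740.5 and 2350.2 in DMM mice. The groups did not overlap, with naive mouse 4 the highest and DMM mouse 4 the lowest of their groups. Tgfbr2 was 1.46-fold higher in DMM (log2 0.54, SE 0.11, DESeq2 adjusted p = 1.82e-05), just under the 1.5-fold threshold. It was called without naive mouse 4 (log2 0.62), without DMM mouse 4 (0.59) and under total count scaling (0.69).

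Tgfbr1 (ENSMUSG00000007613, chr4:47353222-47414931, plus strand) encodes the kinase receptor that TGFBR2 activates. It had 980, 962, 959 and 1105 normalised counts in naive mice and 1087, 1114, 1303 and 1305 in DMM mice. Naive mouse 4 lay above DMM mouse 1, so the groups overlapped. The log2 fold change was 0.26 (SE 0.11, DESeq2 adjusted p = 0.0666, 95% interval 0.05 to 0.48). The adjusted p-value was 0.0334 without naive mouse 4, 0.0385 with TMM factors and 0.00774 under total count scaling, in each case with a change under 1.5-fold. Under the scaling used here the interval of Tgfbr1 excludes a rise of 1.5-fold, whereas that of Tgfbr2 (0.33 to 0.76) does not.

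Levels were compared between genes as normalised counts per kilobase of the longest coding transcript. In naive mice the mean level was 1035 for Tgfb1, 339 for Ltbp3, 241 for Ltbp1, 221 for Tgfbr2, 174 for Tgfbr1, 129 for Ltbp2, 122 for Inhba, 106 for Tgfb2, 97 for Tgfb3 and 29.9 for Fst. Ranges of neighbours in this order overlapped except between Tgfb1 and Ltbp3, Tgfbr2 and Tgfbr1, Tgfbr1 and Ltbp2, and Tgfb3 and Fst. In DMM mice the mean level was 1032 for Tgfb1, 619 for Ltbp3, 400.1 for Ltbp1, 323 for Tgfbr2, 264 for Ltbp2, 252 for Tgfb2, 209 for Tgfbr1, 206 for Tgfb3, 192 for Inhba and 36.8 for Fst. Here the ranges of Tgfb1, Ltbp3 and Ltbp1 were each apart from the next, those from Tgfbr2 to Inhba overlapped from neighbour to neighbour, and Fst stood apart. Tgfb1 thus stayed at the head and Fst at the foot of the order in both groups, and Tgfb2 moved from below Tgfbr1 and Inhba to above both in the means.

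**Figure D3:**
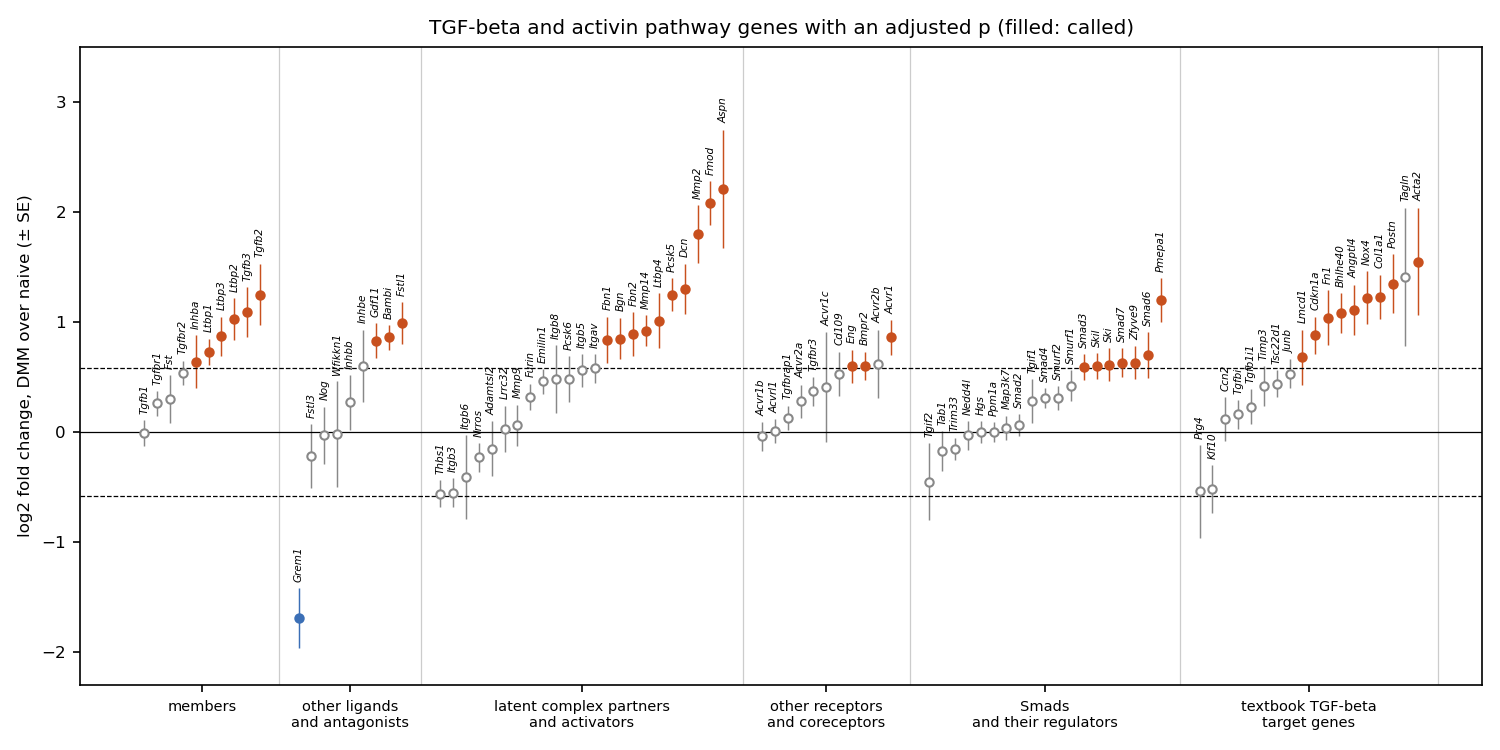
Log2 fold change, DMM over naive (DESeq2, bars of 1 SE), of the 10 genes and of the other pathway genes with an adjusted p-value, in the lists given in the text, where filled points are called higher (orange) or lower (blue), open points are not called, and dashed lines mark 1.5-fold. Of the 81 other genes with an adjusted p-value, 33 are called higher and 1, Grem1, is called lower, and a gene not reported here is left out of the plot.

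The remainder of the pathway was described by 5 lists of 87 genes in all, of which 81 received an adjusted p-value, 33 were called higher in DMM and 1 was called lower, where 7.75% and 5.92% of all tested genes were called in these directions. Their median log2 fold change was 0.48. Of the 23 genes that hold or release latent TGF-β, 10 were called higher, with a median of 0.56. These included Mmp14 (0.92, SE 0.14, DESeq2 adjusted p = 2.66e-08), a membrane-anchored protease, Pcsk5 (1.25, SE 0.15, adjusted p = 1.37e-14), a proprotein convertase, and the TGF-β-binding proteoglycans Dcn, Bgn, Fmod and Aspn. By adjusted p-value alone 2 genes of that list were lower, namely Thbs1, an activator of latent TGF-β that is abundant in platelets (-0.56, adjusted p = 9.03e-05), and Itgb3, the β3 integrin subunit of platelets and osteoclasts (-0.55, adjusted p = 0.000224). The 7 megakaryocyte and platelet markers took 0.0378% to 0.0512% of counts in naive and 0.0213% to 0.0274% in DMM libraries, and 6 of the 7 were called lower. The part of platelet RNA in the 2 lower genes was not tested.

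Of the 14 other ligands and antagonists, 9 received an adjusted p-value. Called higher were Gdf11, an activin-like ligand (107.6 ± 7.4 normalised counts in naive and 191.3 ± 17.3 in DMM mice, SD, n = 4 each), Fstl1, a follistatin-related secreted glycoprotein (1764 ± 294 and 3501 ± 993), and Bambi, a decoy receptor without a kinase domain (270.2 ± 9.6 and 490.7 ± 31.7). Bambi counts lay between 258 and 281.5 in naive and between 449 and 518 in DMM mice. Grem1, an antagonist of BMPs rather than of TGF-β, was the only pathway gene called lower, with 834, 498, 934 and 567 normalised counts in naive mice and 192, 277, 123 and 286 in DMM mice (log2 -1.69, SE 0.27, DESeq2 adjusted p = 4.63e-08).

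Of the 11 other receptors and coreceptors, 3 were called higher (Acvr1, Bmpr2 and Eng), with a list median of 0.41. Leaving out 1 library gave between 1 (without naive mouse 1 or DMM mouse 3) and 5 (without naive mouse 4). Eng, an endothelial coreceptor, rose by 0.60 on the log2 scale (SE 0.15, DESeq2 adjusted p = 0.000737), and 6 endothelial markers took 0.0207% to 0.0281% of counts in naive and 0.0328% to 0.0378% in DMM libraries. Of these 6, 2 were called higher, and Pecam1, with 36.7% of the list's counts, differed by -0.03 (adjusted p = 0.927). The relation of Eng to these markers was not tested. Eng stood close to the fold threshold and kept its call only without naive mouse 2 or DMM mouse 4, and Bmpr2 (0.60) lost its call without naive mouse 1 or 2 or DMM mouse 3 or 4. The coreceptor Tgfbr3, which presents TGF-β2 to TGFBR2, was higher by adjusted p-value alone (0.37, SE 0.13, adjusted p = 0.0288) with overlapping groups. The activin receptor genes Acvr2a (0.28, SE 0.15, adjusted p = 0.199) and Acvr1b (-0.04, SE 0.13, adjusted p = 0.874) were not called, and the sign of Acvr1b turned under total count scaling (0.11).

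Among 19 Smads and their regulators, 7 were called higher, with a median of 0.31, and between 3 (without naive mouse 1 or DMM mouse 3) and 7 when 1 library was left out. Smad2 (0.06, SE 0.10, DESeq2 adjusted p = 0.722) was not called, while Smad3 was called at the edge of the fold threshold (0.59, SE 0.12, adjusted p = 2.14e-05) and lost the call without naive mouse 1 or 2 or DMM mouse 3 or 4. Smad7 (0.63, SE 0.13, adjusted p = 6.31e-05), an inhibitory Smad, Skil (0.60, SE 0.12, adjusted p = 3.84e-05), a corepressor, and Pmepa1 (1.20, SE 0.20, adjusted p = 1.87e-07), which binds receptor-regulated Smads, were called. Of other genes known to restrain the pathway, Smad6 (0.70, SE 0.21, adjusted p = 0.00608, overlapping groups) and Ski (0.61, SE 0.15, adjusted p = 0.000556) were also called. Smurf1 (0.42) and Smurf2 (0.31) were higher by adjusted p-value alone. Tgif1 at 0.28, Nedd4l at -0.03 and Tgif2 at -0.45 passed neither threshold. Skil lost its call without the same 4 libraries as Smad3, and Smad7 without DMM mouse 2. Smad7 counts were 336, 337, 412 and 337 in naive mice and 574, 615, 477 and 529.8 in DMM mice. The groups did not overlap.

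Of 20 textbook TGF-β target genes, 19 received an adjusted p-value and 10 were called higher, with a median of 0.88. Among them were Cdkn1a, a cell cycle inhibitor (log2 0.88, SE 0.17, DESeq2 adjusted p = 6.72e-06), Bhlhe40, a transcriptional repressor (1.08, SE 0.18, adjusted p = 1.65e-07), and Col1a1 (1.23, SE 0.20, adjusted p = 4.53e-08). Cdkn1a counts lay between 174 and 273 in naive and between 372 and 468 in DMM mice, without overlap. Several targets were not called, among them Ccn2 (0.12, adjusted p = 0.736) and Tgfbi (0.16, adjusted p = 0.432). Klf10 (-0.52, adjusted p = 0.0674) and Prg4, which encodes lubricin (-0.54, adjusted p = 0.407), had negative log2 fold changes and were not called either. Many of these genes respond to other signals, and Col1a1 is also the main collagen of bone and fibroblasts.

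Marker lists, those of other joint cells among them, were also compared between the groups. By exact permutation, 6 of the 11 lists reached the smallest p possible, 0.0286, or 0.0524 when adjusted over the 11 lists. No list thus passed 0.05 after adjustment. As the lists were chosen with earlier results of these data known, these p-values only describe the values. Of the 7 synovial and other fibroblast markers, 4 were called higher, and the list took 0.0636%, 0.0921%, 0.144% and 0.193% of counts in naive mice and 0.622%, 0.354%, 0.754% and 0.365% in DMM mice (two-sided exact permutation p = 0.0286). Col3a1, a collagen, held 95.3% of this list's counts. The other 6 markers together took 0.00869% to 0.0147% in naive and 0.0115% to 0.0301% in DMM mice, which overlapped (two-sided exact permutation p = 0.0571), and of these Pi16 was lower by adjusted p-value alone (log2 -0.35, DESeq2 adjusted p = 0.00966), and Clec3b and Cd34 were not called. In DMM mice the list was highest in mice 1 and 3 with and without Col3a1, as were Tgfb3 and Ltbp4. The 8 osteoblast and osteocyte markers took 0.121% to 0.182% of counts in naive and 0.294% to 0.540% in DMM mice (exact permutation test, two-sided p = 0.0286), with 7 called higher. That list and the chondrocyte and neutrophil lineage lists were highest among DMM mice in mouse 4, as were Tgfb2, Inhba and, by a small margin, Ltbp1 and Tgfbr1. Among naive mice, mouse 4 was highest for the fibroblast, osteoblast and osteocyte, osteoclast and macrophage lists and for all of the 10 genes except Tgfb1 and Inhba. Osteoclast markers overlapped between groups (0.0350% to 0.0677% and 0.0539% to 0.0927%), as did macrophage markers (0.0458% to 0.0489% and 0.0462% to 0.0569%), B cell markers (0.0164% to 0.0214% and 0.0198% to 0.0409%) and skeletal muscle markers (0.000297% to 0.00293% and 0.000345% to 0.00701%). The part of any of these cells in the levels of the 10 genes was not tested.

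**Figure D4:**
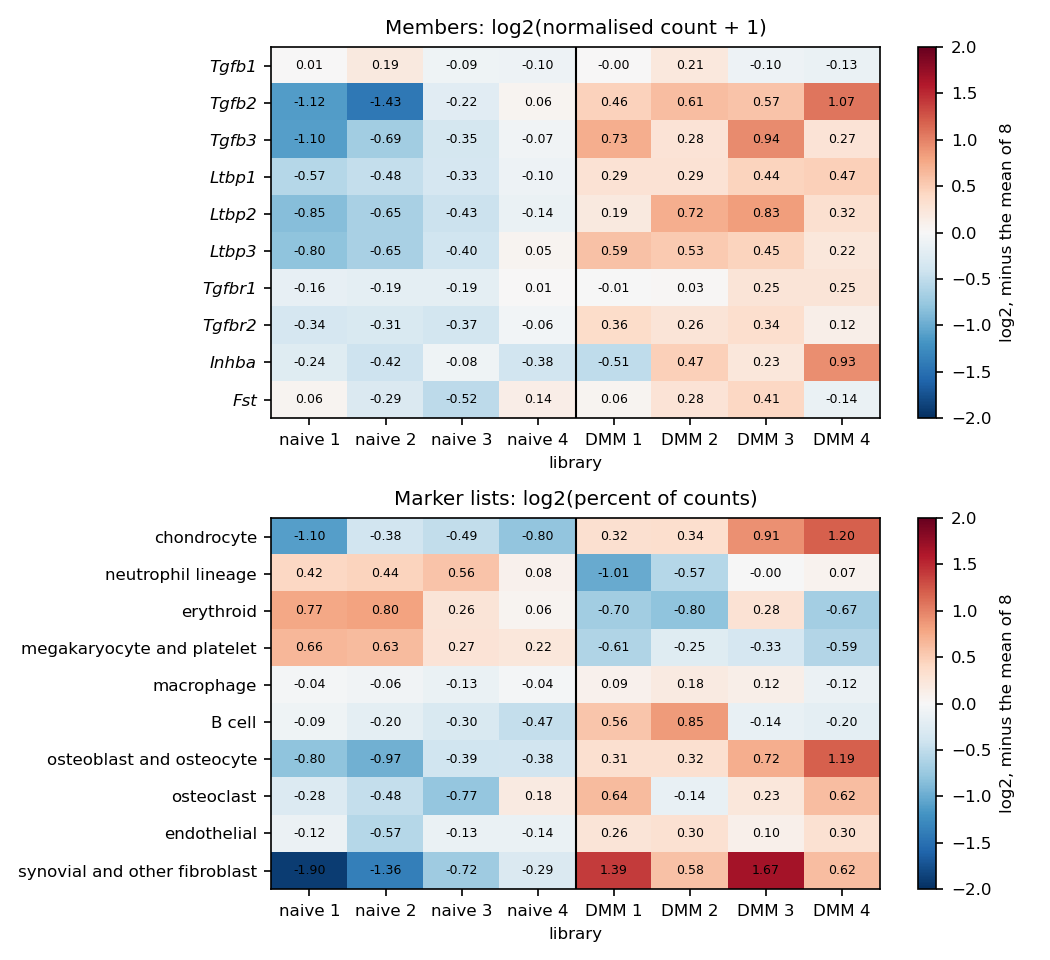
Log2 level of each of the 10 genes (top, normalised count + 1) and of each marker list except skeletal muscle (bottom, percent of all counts) in each library, minus its own mean over the 8 libraries, with blue below and red above that mean. Tgfb3 and the fibroblast list are highest in DMM mice 1 and 3, and Tgfb2, Inhba and the osteoblast and chondrocyte lists are highest in DMM mouse 4.

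The genes whose pattern over the 8 libraries was nearest to that of each gene were found by the mean absolute difference of centred log2 values among the 11014 genes averaging 100 or more normalised counts. Tgfb2 lay nearest to Sost, an osteocyte gene that is itself on the osteoblast and osteocyte list (0.119), and to Ddit4l (0.121) and Egr3 (0.138). Tgfb3 lay nearest to Synm (0.051), Timp2 (0.076) and Gpx3 (0.086), and Ltbp2 to Larp6 (0.089), Osmr (0.096) and Sfrp4 (0.100). Ltbp1 had Pde4dip (0.040), Ltbp3 had Dchs1 (0.048), Tgfbr2 had Arhgap35 (0.040), Tgfbr1 had Zbtb38 (0.026), Tgfb1 had Synrg (0.026) and Fst had Dpy19l3 (0.073) as the nearest gene. The nearest gene to Inhba, Scrg1, was farther off (0.185) than the nearest gene to any of the other 9. None of the 10 genes was among the 3 nearest to another, though Fst, averaging under 100 normalised counts, was not a candidate. These distances describe 8 libraries of 2 groups that share all other differences between the groups.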

How the data were processed

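RNA-seq of medial knee cartilage caps from 4 naive and 4 DMM mice was analysed. Deposited values are estimated counts per gene, for which the authors trimmed reads (Trimmomatic), pseudo-aligned them (Kallisto) and summarised transcripts by gene (Tximport). Of the values, 39.0% are not whole, because Kallisto divides reads between transcripts, and they were rounded before testing. The submitters' processing notes name kallisto, DESeq2 and GRCh38, whereas the methods name mouse GRCm38 with an Ensembl release built on another assembly, so the build behind the counts is uncertain. The kit named in the labels (NEB) also differs from that in the methods (SMART-Seq). Coordinates are from GENCODE vM21 (GRCm38) and promoters and microRNAs from RefSeq GRCm38.p6. Symbols were found for 48855 identifiers, holding 86.6% of counts.

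DESeq2 1.42.0 in R 4.3.3 (Wald test, median-of-ratios factors, default filtering, unshrunken fold changes) was fitted to all genes and 8 libraries without covariates. The Wald test is the one the study's methods name, and the remaining settings were chosen here. P-values weigh the difference between groups against the spread between mice. With 1 library per mouse, that spread cannot be split into parts from mouse, dissection and library. Alternatives were edgeR 4.0.16, limma 3.58.1 (voom), TMM factors, total count scaling, at least 10 counts in 4 libraries, no independent filtering, no fold threshold, a replicate block and leaving out each library. Tests were checked on simulated data. Marker lists were compared by a two-sided exact permutation test over 70 assignments.

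The 10 genes, the pathway lists and the marker lists were chosen with earlier results of these data known, and no gene set test was run. The only p-values given for lists are those of the marker lists' summed shares of counts. Named genes are the 10, Ltbp4, Tgfbr3, Acvr2a, Acvr1b, Smad2, Smad3, Smad7, Pmepa1, Fstl3 and Inhbb, and in each list up to 4 called genes with the smallest adjusted p-values and a mean of at least 20 normalised counts. Nearest genes are the 3 with the smallest distance. Other genes were named after their values were seen, and a gene that the rule also named is not reported here.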

Additional observations from a re-analysis of the deposited data

Results flagged for a closer look

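In 9 of the 112 groups of 4 libraries examined (normalised counts of the named genes, shares, and marker lists), 1 library stood apart from the other 3 by Dixon's test, where chance gives about 5.6. Among the 10 genes, both receptors stood apart in naive mouse 4, with 1105 normalised counts of Tgfbr1 against 959 to 980 in the other naive mice and 2064 of Tgfbr2 against 1671 to 1737. The Tgfb2 share of the 3 ligands was 22.8% in DMM mouse 4 against 14.5% to 15.8%. Smad7 had 412 normalised counts in naive mouse 3 against 336 to 337. Eng stood apart in each group, with 665 normalised counts in naive mouse 2 against 573 to 579 and 671.5 in DMM mouse 4 against 961 to 998. Of the marker lists, the erythroid list took 1.26% of counts in DMM mouse 3 against 0.596% to 0.650%, the endothelial list 0.0207% in naive mouse 2 against 0.0279% to 0.0281%, and the skeletal muscle list 0.00701% in DMM mouse 1 against 0.000345% to 0.00122%.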

How the results depend on the processing

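The number of the 10 genes called higher was 5 to 7 under every alternative run, and no alternative called one of them lower. Tgfb2, Tgfb3, Ltbp1, Ltbp2 and Ltbp3 were called in all 8 fits that left out 1 library and under all 7 other alternatives to the test, scaling, filter or design. Inhba lost its call under edgeR (log2 0.66), limma-voom (0.58), no independent filtering (0.64) and 5 of the 8 fits without a library. The cause was not tested. Tgfb1 turned positive, without passing the test, under edgeR (0.0133), limma-voom (0.0112), TMM factors (0.0209) and total count scaling (0.154), and lay between -0.0814 and 0.0603 without single libraries. Acvr1b was 0.113 under total count scaling and between -0.0886 and 0.0205 without single libraries, and was not called. Over the 36 named genes and the fits without a library, 257 values kept their direction and side of the threshold, 24 lost the call, 2 gained it and 5 changed sign.

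Under total count scaling 489 genes were called lower, against 1052. Without a fold threshold 4010 genes were called and 1989 were lower, since the threshold then drops out. In that setting 2 genes of the latent complex list were lower, against 0, and 5 other receptors were higher, against 3. Leaving out 1 library moved the latent complex genes called lower between 0 (most libraries) and 2 (naive 3 or naive 4), other receptors called higher between 1 (naive 1 or DMM 3) and 5 (naive 4), Smads and regulators called higher between 3 (naive 1 or DMM 3) and 7, and targets called lower between 0 and 1 (naive 4, DMM 3 or DMM 4). The Tgfb2 share rose by 13.3 percentage points without length scaling, against 8.40, and the log2 Inhba to Fst difference was -0.0611 without DMM mouse 4, against 0.253. Exon union length, an alternative chosen after seeing the data, gave 11.0 points. Leaving the most abundant marker out of each list was also chosen after seeing the data. The fibroblast difference was then 0.00977 percentage points (exact permutation p = 0.0571), against 0.400 (exact permutation p = 0.0286). The other 10 lists kept their direction and their side of 0.05 before adjustment over lists. After adjustment no full list passed 0.05, the smallest value being 0.0524.

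Mice with the same replicate number showed no shared deviation (correlations of 0.05, 0.06, -0.12 and 0.12), against -0.16 to 0.21 for other pairs. With so few pairs, this cannot show that the numbers carry no shared handling. With a replicate block 2081 genes were called, against 2429, and Inhba (0.56, DESeq2 adjusted p = 0.0853) and Eng (0.58) lost their calls.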
